A study of Homo sapiens with 4 samples.

Results

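The 40 genes described here encode the machinery that copies DNA, and they were followed in U87 cells, an established human glioma line, with and without added miR-20a. They were taken from a list of replication genes and found on the array as the probe sets whose platform annotation names exactly 1 gene. All 40 were measured, by 72 probe sets, among 18304 genes and 41920 probe sets in the whole table. A further 4 probe sets name a member together with another gene and were not used. The tested cells carried a knockdown of QK, the RNA-binding protein gene also called QKI, and were transduced with miR-20a (2 arrays). The control cells carried the same knockdown and were transduced with miR-NT, a scrambled microRNA without a target (2 arrays). Cells without the knockdown were not analysed here, and neither the time after transduction nor whether the cells were a pool or 1 clone is given in the sources used here. Each value is a log2 probe-set level on 1 array, and a change is the miR-20a mean minus the miR-NT mean. Every test is limma's moderated comparison of 2 arrays against 2, fitted to the whole table, and a call is an adjusted p under 0.05 over all genes or all probe sets. Whether the arrays of a group stand for separate cultures is not stated in the labels. A p-value here therefore covers the spread among 4 arrays, which may be technical. For each gene, limma draws that spread towards the spread of all genes, so standard errors and intervals rest partly on other genes.

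A cell copies its genome once per division. In the first gap phase, the origin recognition complex marks start sites, and CDC6 and CDT1 place the MCM2 to MCM7 ring, the core of the replicative helicase, on the DNA. At the start of S phase, cyclin E with CDK2 and the kinase CDC7 with DBF4 switch the ring on together with CDC45 and the GINS complex, and primase and the polymerases begin synthesis. Most of these genes are textbook targets of the E2F transcription factors, which the RB protein holds in check until the cell commits to division. The miR-17 family, to which miR-20a belongs, is known to reduce E2F1 and the CDK inhibitor p21, so it touches both sides of this switch.

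The microRNA supplied and the 2 that the genome places inside a replication gene are shown because they carry the same seed. The seed, bases 2 to 8 of a mature microRNA, is in capitals, and the sequences are those of RefSeq for GRCh38.p14, written 5′ to 3′. Among the mature human microRNAs of RefSeq, 8 share this seed. The labels name miR-20a without an arm, and the 5p strand, the one usually retained, is shown (chr13:91351072-91351094, plus strand). The hairpins of miR-106b and miR-93 lie within the span of MCM7, on the same strand (chr7:100094043-100094063 and chr7:100093815-100093837 for the mature sequences, minus strand).
hsa-miR-20a-5p: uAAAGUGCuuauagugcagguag
hsa-miR-106b-5p: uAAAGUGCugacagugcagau
hsa-miR-93-5p: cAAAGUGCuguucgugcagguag

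The promoters of these genes were read for the E2F motif, spelled TTTCCCGC, TTTCGCGC, TTTGGCGC or TTTGCCGC and searched on both strands. RefSeq windows of 300 bases, 250 before to 50 after a gene's start, were matched for 36 of the 40 genes, with 48 windows in all. The E2F motif was found in 20 of these 48 windows, 41.7%, against 3.31% of all 35116 windows of that length. The box CCAAT was found in 54.2% of the genes' windows and in 34.6% of all windows. The element TTTGAA, known from genes of the later cell cycle, was found in 4.17% of the genes' windows and in 15.2% of all windows. A single E2F match overlapped one of the other motifs. Letters that match a motif are a description of the sequence and show no binding in these cells. The windows of MCM6, which holds the most E2F matches, of CDT1, whose second probe set had the lowest change of all 72, and of RFC5, which had the highest, are shown for the 250 bases before the start, with E2F matches in capitals. The RFC5 window holds no E2F match. Each capital block of MCM6 holds 2 overlapping matches, 1 on each strand. The windows lie at chr2:135876444-135876693 on the minus strand for MCM6, chr16:88803539-88803788 on the plus strand for CDT1 and chr12:118016453-118016702 on the plus strand for RFC5 (GRCh38.p14).
MCM6: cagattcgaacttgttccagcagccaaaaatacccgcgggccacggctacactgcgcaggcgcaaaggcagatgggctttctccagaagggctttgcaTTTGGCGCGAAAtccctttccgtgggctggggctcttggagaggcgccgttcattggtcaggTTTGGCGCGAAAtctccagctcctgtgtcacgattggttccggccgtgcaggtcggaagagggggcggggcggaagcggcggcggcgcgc
CDT1: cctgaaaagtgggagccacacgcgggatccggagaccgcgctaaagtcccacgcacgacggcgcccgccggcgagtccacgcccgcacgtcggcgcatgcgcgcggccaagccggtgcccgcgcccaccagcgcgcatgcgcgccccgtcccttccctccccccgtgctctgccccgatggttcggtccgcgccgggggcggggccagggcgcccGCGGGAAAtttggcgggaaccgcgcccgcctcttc
RFC5: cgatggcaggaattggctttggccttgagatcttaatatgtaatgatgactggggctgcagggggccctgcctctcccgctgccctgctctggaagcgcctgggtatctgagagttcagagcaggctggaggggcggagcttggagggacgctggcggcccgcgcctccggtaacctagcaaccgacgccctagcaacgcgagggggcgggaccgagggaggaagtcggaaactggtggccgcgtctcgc

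The arrays were alike in scale. Median levels over probe sets lay between 6.97 and 7.01 on the 4 arrays, and levels were spread slightly more widely in miR-20a cells (SDs of 1.89 and 1.90 against 1.84 and 1.85). By its probe set of highest level, QKI, the gene knocked down in every sample, was at 9.53 and 9.38 in miR-20a cells, against 9.18 and 9.38 in miR-NT cells (limma adjusted p = 0.39). Of the 10 QKI probe sets, 4 were higher and 6 lower in miR-20a cells under both scalings. The 9 measured markers of U87 and mesenchymal glioma, among them VIM and CD44, had a median level of 12.5 log2 units. Their list means were 12.1 to 12.2 in miR-20a cells and 12.0 in miR-NT cells, but single changes ran from -1.12 to 1.64. Of the 9, limma called 1 higher and 1 lower, 11.1% each, beside 0.366% and 0.0601% of all genes. The lists of 8 epithelial, 6 blood and 7 endothelial markers had median levels of 6.79, 7.37 and 6.96, and the deposited values hold no detection calls by which a low level could be told from background. Array means ranged from 6.37 to 6.42 in miR-20a cells and from 6.39 to 6.43 in miR-NT cells for the epithelial list, and from 7.17 to 7.43 and from 7.34 to 7.34 for the blood list. The endothelial list stood at 6.84 on both miR-20a arrays and at 6.95 and 6.96 on the miR-NT arrays. The part of these differences in the results below was not tested.

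No DNA replication gene passed the test. Under the deposited scaling 0 of 40 genes were called, beside 78 of all 18304 genes (0.426%), and 0 of their 72 probe sets, beside 57 of 41920 (0.136%). Means were higher in miR-20a cells for 20 genes and lower for the other 20, beside 47% and 53% of all genes. The median change was -0.0019 log2 units over the 40 genes and -0.013 over all genes, and 38 of the 40 changes lay within 0.3 units of 0. At an unadjusted limma p under 0.05 there were 2 genes higher, RFC2 and RFC5, and 3 lower, ORC1, POLE2 and FEN1. These are 5% and 7.5% of the 40, below the shares of all genes, 12.6% higher and 9.24% lower. By probe set the same threshold held 4 higher and 9 lower of 72, or 5.56% and 12.5%, beside 9.46% and 8.4% of all probe sets. The 2 groups of arrays did not overlap for 11 genes that were higher and 12 that were lower, 27.5% and 30% of the 40, beside 25.5% and 27% of all genes.

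The arrays set a limit on what these values can show. The standard error of a change had a median of 0.091 log2 units over the 40 genes, and the 95% interval had a median half-width of 0.22. For 34 of the 40 genes the whole interval lay within 0.5 log2 units of 0, and for 1, RFC5, it reached beyond 1 unit. An interval clear of 0 was not enough for a call over all genes: that of RFC5 ran from 0.32 to 1.05, at a limma adjusted p of 0.090. With 2 arrays a group, a missed threshold therefore does not show that a gene was the same in both groups.

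**Figure D1:**
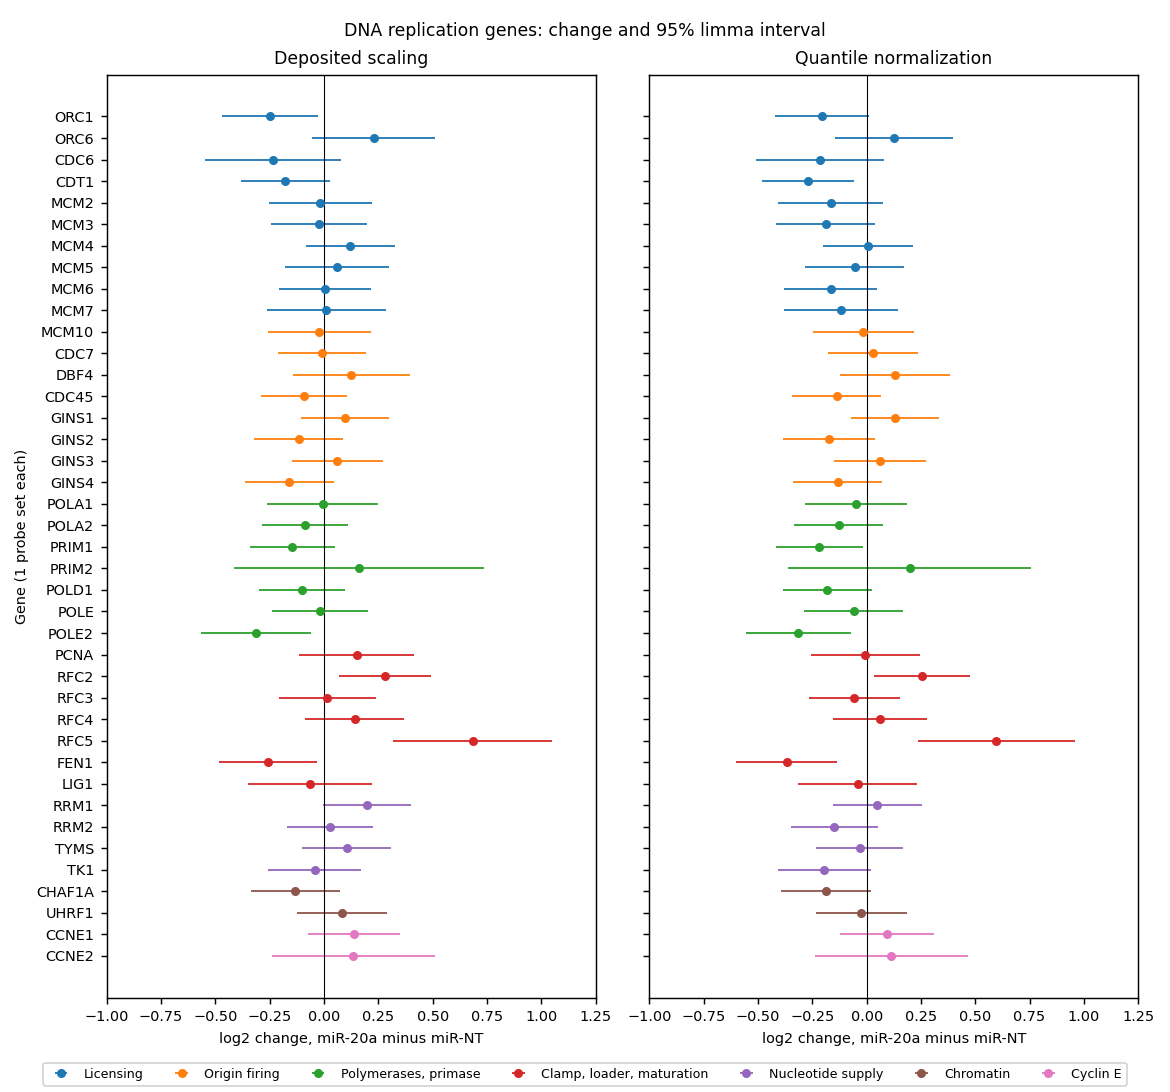
Change of each of the 40 DNA replication genes on the horizontal axis (log2 units, miR-20a minus miR-NT), with points for the change and bars for limma's 95% interval, coloured by role, under the deposited scaling (left) and after quantile normalization (right). RFC5 stands farthest right at 0.68 and 0.60, and the intervals of 35 genes in the left panel cross 0.

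Quantile normalization, which gives all 4 arrays the same distribution of values, moved this group of genes downwards. After it, means were higher in miR-20a cells for 13 genes and lower for 27, or 32.5% and 67.5%, beside 46.8% and 53.2% of all genes. Again 0 of 40 were called (111 of all genes, 0.606%). By probe set 0 of 72 were called, beside 0.157% of all. The median change was -0.055 over the 40 genes and -0.014 over all genes. The normalization shifted the change of 31 of the 40 genes down, beside 7727 of all 18304. Its median shift was -0.064 over all 40 and 0.022 over all genes. The 40 genes had a median level of 8.82 log2 units under the deposited scaling, against 7.62 over all genes, and 34 lay above the latter. The part of level in this shift was not tested. A sign turned for 9 of the 40 genes and for 2157 of all 18304. Of the 9, MCM5, MCM6, MCM7, PCNA, RFC3, RRM2, TYMS and UHRF1 became lower and CDC7 became higher. At an unadjusted limma p under 0.05 there were 2 genes higher and 4 lower (beside 9.55% and 10.1% of all genes), and 3 probe sets higher and 11 lower (beside 8.04% and 8.03%). Groups did not overlap for 3 genes that were higher and 18 that were lower, 7.5% and 45%, beside 23.1% and 28.2% of all genes. So the balance of higher and lower genes rested on the scaling, and no single gene was called under either.

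**Figure D2:**
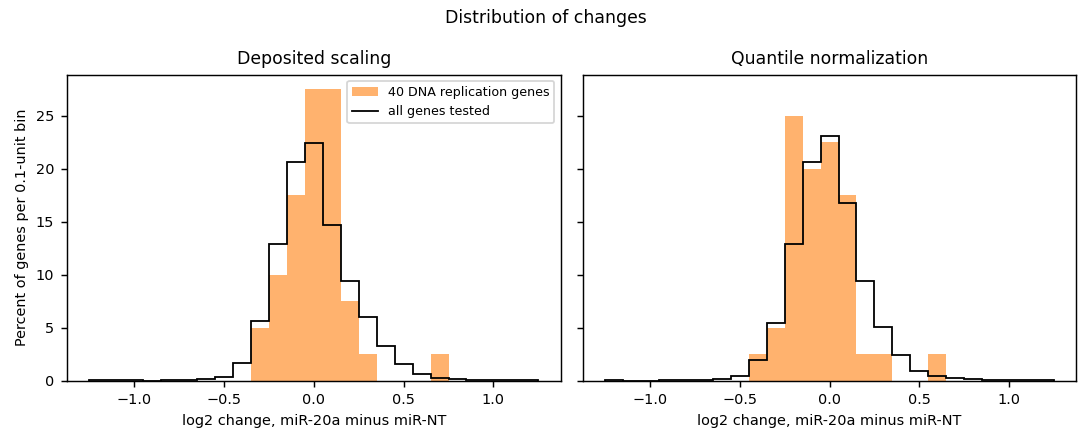
Share of genes (vertical axis, percent) by log2 change in bins of 0.1 units, for the 40 DNA replication genes (filled) and all 18304 genes (line), under the deposited scaling (left) and after quantile normalization (right). The filled distribution is centred near 0 on the left, with a median of -0.0019, and lies further left on the right, with a median of -0.055.

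Among the 10 licensing genes, means were higher in miR-20a cells for 5 and lower for 5, and none was called (0 higher and 1 lower, ORC1, at an unadjusted limma p under 0.05). ORC1, the large ATPase subunit of the origin recognition complex, was at 6.36 and 6.45 in miR-20a cells, against 6.59 and 6.71 in miR-NT cells. Both miR-20a arrays lay below both miR-NT arrays, with a change of -0.25 ± 0.09 (SE, limma adjusted p = 0.19). ORC6, the smallest subunit, was at 10.06 and 9.85 in miR-20a cells and at 9.61 and 9.84 in miR-NT cells. Its groups did not overlap, but the gap between them was smaller than the difference between the arrays of either group, and its change was 0.23 ± 0.12 (limma adjusted p = 0.31). The change was 0.11 without the first miR-NT array, 0.34 without the second, 0.12 without the first miR-20a array and 0.12 after quantile normalization. The only ORC6 probe set carries an x in its name, the manufacturer's mark for probes that may also bind unrelated transcripts, as do the CDT1 probe set used and 1 of the 4 for CHAF1A.

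CDC6, which recruits the helicase to origins, was at 7.70 and 7.33 in miR-20a cells and at 7.76 and 7.74 in miR-NT cells. The lower mean came mostly from the second miR-20a array: the change of -0.23 was -0.048 without that array and -0.42 without the first. The second CDC6 probe set was at 6.99 and 6.83 in miR-20a cells, against 7.23 and 7.17 in miR-NT cells, a change of -0.29 ± 0.10 (limma adjusted p = 0.22). CDT1, the partner of CDC6 in loading, was at 9.28 and 9.37 in miR-20a cells, against 9.50 and 9.51 in miR-NT cells. The CDT1 change was -0.18 ± 0.09, and -0.27 after quantile normalization (limma adjusted p = 0.18). Its other probe set was at 7.74 and 7.79 in miR-20a cells, against 8.26 and 8.15 in miR-NT cells. That difference of -0.44 ± 0.09 was the lowest of the 72 probe sets (limma adjusted p = 0.14 over all probe sets) and stayed at -0.44 after quantile normalization. Both probe sets of CDC6 and both of CDT1 were lower in miR-20a cells under either scaling.

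The 6 subunits of the MCM2 to MCM7 helicase ring had changes between -0.023 and 0.12 log2 units by gene, with a median of 0.0062, and 0 of 6 reached an unadjusted limma p under 0.05. After quantile normalization the range was -0.19 to 0.0063 and the median -0.14, with 5 of 6 lower, beside 53.2% of all genes. MCM2 was at 10.56 and 10.53 in miR-20a cells and at 10.67 and 10.46 in miR-NT cells, so that the miR-NT arrays enclosed the miR-20a arrays. MCM6 was at 10.80 and 10.72 in miR-20a cells and at 10.80 and 10.71 in miR-NT cells, with a change of 0.0025 ± 0.089. MCM7, whose span holds miR-106b and miR-93, was at 10.25 and 10.04 in miR-20a cells and at 10.24 and 10.03 in miR-NT cells by the probe set used. Its other probe set gave another picture, at 9.89 and 9.75 in miR-20a cells, against 10.17 and 10.06 in miR-NT cells. That was a change of -0.30 ± 0.10 (limma adjusted p = 0.21), and -0.41 after quantile normalization (0.15). MCM4 was likewise split over its 4 probe sets. By the one used it was at 9.96 and 9.94 in miR-20a cells, against 9.78 and 9.88 in miR-NT cells, a change of 0.12 that was 0.073 without the first miR-NT array and 0.0063 after quantile normalization. Another was at 8.79 and 8.71 in miR-20a cells, against 9.06 and 8.92 in miR-NT cells. That was a change of -0.24 ± 0.10 (limma adjusted p = 0.26), and -0.31 after quantile normalization (0.21). The remaining MCM4 probe sets had changes of 0.13 and 0.16. MCM3 and MCM5 had changes of -0.023 and 0.058 by gene.

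Genes that start the fork had small changes. Among the 8 measured, 3 were higher and 5 lower, all between -0.16 and 0.13, and 0 of 8 reached an unadjusted limma p under 0.05 by gene or by any of their 15 probe sets, under either scaling. CDC7, the kinase that phosphorylates the MCM ring, had a change of -0.010. DBF4, its activating subunit, was at 8.09 and 7.82 in miR-20a cells and at 7.79 and 7.87 in miR-NT cells, a change of 0.13 with overlapping groups. CDC45, which joins MCM and GINS in the active helicase, was at 8.50 and 8.55 in miR-20a cells, against 8.63 and 8.61 in miR-NT cells. The GINS subunits went both ways: GINS1 had a change of 0.097 and GINS3 of 0.062, while GINS2 and GINS4 had changes of -0.12 and -0.16. GINS2 and GINS4 also held probe sets of the opposite sign, and those of GINS4 spanned -0.25 to 0.19. MCM10, a scaffold of the starting fork, had changes of -0.022 to -0.087 over its 3 probe sets.

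Polymerase and primase genes had lower means in 6 of 7 cases under both scalings, beside 53% of all genes under each. Their median change was -0.087 by the deposited values and -0.13 after quantile normalization. POLE2, the second subunit of the leading-strand polymerase epsilon, was at 7.86 and 7.65 in miR-20a cells, against 8.01 and 8.13 in miR-NT cells. Its change of -0.31 ± 0.11 (SE, limma adjusted p = 0.16), or 1.24-fold lower, was the lowest of the 40 genes, and 645 of all genes had a lower one. POLE, the catalytic subunit of the same enzyme, was at 8.42 and 8.53 in miR-20a cells and at 8.44 and 8.55 in miR-NT cells, a change of -0.018. PRIM1, the catalytic primase subunit, was at 8.88 on both miR-20a arrays, against 9.01 and 9.04 on the miR-NT arrays, with a change of -0.15 ± 0.08 that was -0.22 after quantile normalization (limma adjusted p = 0.22). POLA2, the regulatory subunit of polymerase alpha, and POLD1, the catalytic subunit of the lagging-strand polymerase delta, had non-overlapping arrays and changes of -0.087 and -0.10. Of all genes, 27% were likewise lower without overlap under the deposited scaling. POLA1, the catalytic subunit of polymerase alpha, was at 8.58 and 8.33 in miR-20a cells and at 8.48 and 8.45 in miR-NT cells.

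PRIM2, the large primase subunit, was the only gene of the 7 with a higher mean, and that rested on 1 array. Its levels were 6.92 and 6.10 in miR-20a cells and 6.29 and 6.41 in miR-NT cells, so that the miR-20a arrays lay on both sides of the miR-NT arrays. Its change of 0.16 ± 0.24 became -0.25 without the first miR-20a array and 0.57 without the second (limma adjusted p = 0.059).

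Clamp, clamp loader and strand-joining genes held both the highest change and a low one. RFC5, a small subunit of the RFC complex that opens the PCNA ring and loads it on DNA, was at 9.78 and 9.81 in miR-20a cells, against 8.87 and 9.34 in miR-NT cells. The miR-20a arrays agreed closely and both lay above the miR-NT arrays, which stood 0.47 units apart, the widest gap of any of the 40 genes between those arrays. The change of 0.68 ± 0.15 (SE, 1.61-fold higher, 95% interval 0.32 to 1.05) missed the threshold (limma adjusted p = 0.090). It was exceeded by 92 of all genes. Without the first miR-NT array it was 0.45 (limma adjusted p = 0.45), and without the second it was 0.92 (0.17). It passed in 2 other fits, with the lower 40% of genes by level left out (limma adjusted p = 0.032) and with a trend and robust variance (0.027), in which 1239 and 1212 genes passed in all. Over all the fits run, the limma adjusted p of RFC5 ranged from 0.027 to 0.45.

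All 3 probe sets of RFC5 were higher under both scalings, but by unequal amounts. The second was at 8.16 and 8.14 in miR-20a cells, against 7.79 and 7.91 in miR-NT cells, a change of 0.30 ± 0.09 (limma adjusted p = 0.19). The third was at 8.44 and 8.52 in miR-20a cells, against 8.38 and 8.35 in miR-NT cells, a change of 0.11 ± 0.09. The mean over the 3 probe sets had a change of 0.37 (limma adjusted p = 0.10).

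RFC2, another small subunit of the loader, was at 8.39 and 8.51 in miR-20a cells, against 8.15 and 8.19 in miR-NT cells. Its groups did not overlap, with a change of 0.28 ± 0.09 (limma adjusted p = 0.15), and its other probe set had a change of 0.21. RFC4 had a change of 0.14, with levels of 9.21 and 9.05 in miR-20a cells and 8.95 and 9.03 in miR-NT cells. RFC3, by the probe set used, was at 9.03 and 8.86 in miR-20a cells and at 8.92 and 8.95 in miR-NT cells, with overlapping groups and a change of 0.015. A further RFC3 probe set was at 8.10 and 8.15 in miR-20a cells, against 8.48 and 8.27 in miR-NT cells, a change of -0.25 ± 0.11 (limma adjusted p = 0.29) that was -0.14 without the first miR-NT array. The remaining one had a change of -0.076, and all 3 were lower after quantile normalization. PCNA, the sliding clamp itself, was at 10.71 and 10.51 in miR-20a cells and at 10.37 and 10.55 in miR-NT cells, and its change of 0.15 became -0.0072 after quantile normalization.

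FEN1, the nuclease that trims flaps from Okazaki fragments, was at 9.74 and 9.83 in miR-20a cells, against 10.12 and 9.97 in miR-NT cells. That was a change of -0.26 ± 0.09 (limma adjusted p = 0.18), and -0.37 after quantile normalization (0.13). Its other probe set, at 9.85 and 9.69 in miR-20a cells and 9.71 and 9.68 in miR-NT cells, had a change of 0.073 and overlapping groups. LIG1, the ligase that seals the fragments, was at 7.65 and 7.37 in miR-20a cells and at 7.66 and 7.50 in miR-NT cells.

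**Figure D3:**
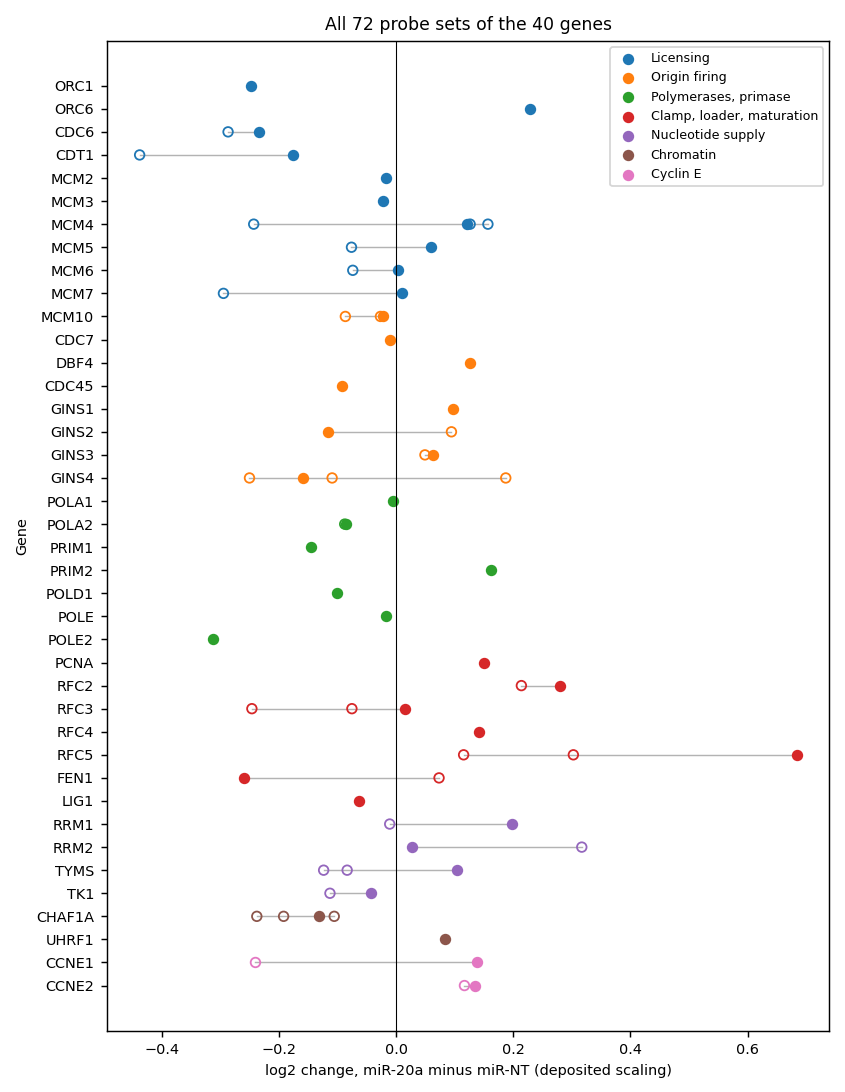
Change (horizontal axis, log2 units, miR-20a minus miR-NT, deposited scaling) of all 72 probe sets, 1 row a gene, coloured by role. Filled points are the probe sets used for the gene, open points the other probe sets, and a grey line joins those of 1 gene. Of the 22 genes with several probe sets, 11 have points on both sides of 0, and RFC5 has the widest span, 0.11 to 0.68.

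Probe sets of a gene often disagreed. Of the 40 genes, 18 had 1 probe set and 22 had several. All were higher for 5 of these 22 genes, all lower for 6, and 11 had both signs. After quantile normalization all were higher for 4, all lower for 12, and 6 had both signs. CDC6, CDT1, MCM10, POLA2, TK1 and CHAF1A were the 6 with all probe sets lower under the deposited scaling. The 5 with all higher were GINS3, RFC2, RFC5, RRM2 and CCNE2. The values do not show which transcripts each probe set binds.

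The 4 nucleotide supply genes had changes of -0.044 to 0.20 by the probe sets used. RRM2, the S-phase subunit of ribonucleotide reductase, was at 11.94 and 11.95 in miR-20a cells and at 11.93 and 11.91 in miR-NT cells, a change of 0.027 ± 0.082. Its other probe set was at 10.75 and 10.72 in miR-20a cells, against 10.31 and 10.53 in miR-NT cells, a change of 0.32 ± 0.11 (limma adjusted p = 0.21) that was 0.16 after quantile normalization. RRM1, the large subunit, was at 10.64 on both miR-20a arrays, against 10.48 and 10.41 on the miR-NT arrays, with a change of 0.20 ± 0.08 that was 0.048 after quantile normalization. The second RRM1 probe set had a change of -0.011. TYMS, which makes thymidylate, was at 12.39 and 12.30 in miR-20a cells, against 12.22 and 12.26 in miR-NT cells. Another TYMS probe set was at 10.47 and 10.37 in miR-20a cells, against 10.58 and 10.52 in miR-NT cells. Its change was -0.12, and -0.27 after quantile normalization (limma adjusted p = 0.24). The remaining one had a change of -0.084. TK1, the thymidine kinase of S phase, had changes of -0.044 and -0.11.

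CHAF1A, the large subunit of the chromatin assembly factor that deposits histones behind the fork, was lower by all 4 of its probe sets. By the one used it was at 8.62 and 8.65 in miR-20a cells, against 8.81 and 8.73 in miR-NT cells, a change of -0.13 ± 0.09, and the others ranged from -0.24 to -0.11. None was called, with a smallest adjusted p of 0.25 (limma). UHRF1, which brings the maintenance methyltransferase to new DNA, was at 9.84 and 9.83 in miR-20a cells and at 9.81 and 9.70 in miR-NT cells.

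The cyclin E genes had higher means by the probe sets used, and neither was called. CCNE1 was at 8.53 and 8.60 in miR-20a cells, against 8.47 and 8.38 in miR-NT cells, a change of 0.14 ± 0.09. Its second probe set was at 6.53 and 6.61 in miR-20a cells, against 6.82 and 6.80 in miR-NT cells, a change of -0.24 ± 0.09 (limma adjusted p = 0.24). CCNE2 was at 8.44 and 8.07 in miR-20a cells and at 7.96 and 8.28 in miR-NT cells, and the arrays of the 2 groups interleaved. The other CCNE2 probe set had a change of 0.12, close to the 0.13 of the one used.

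**Figure D4:**
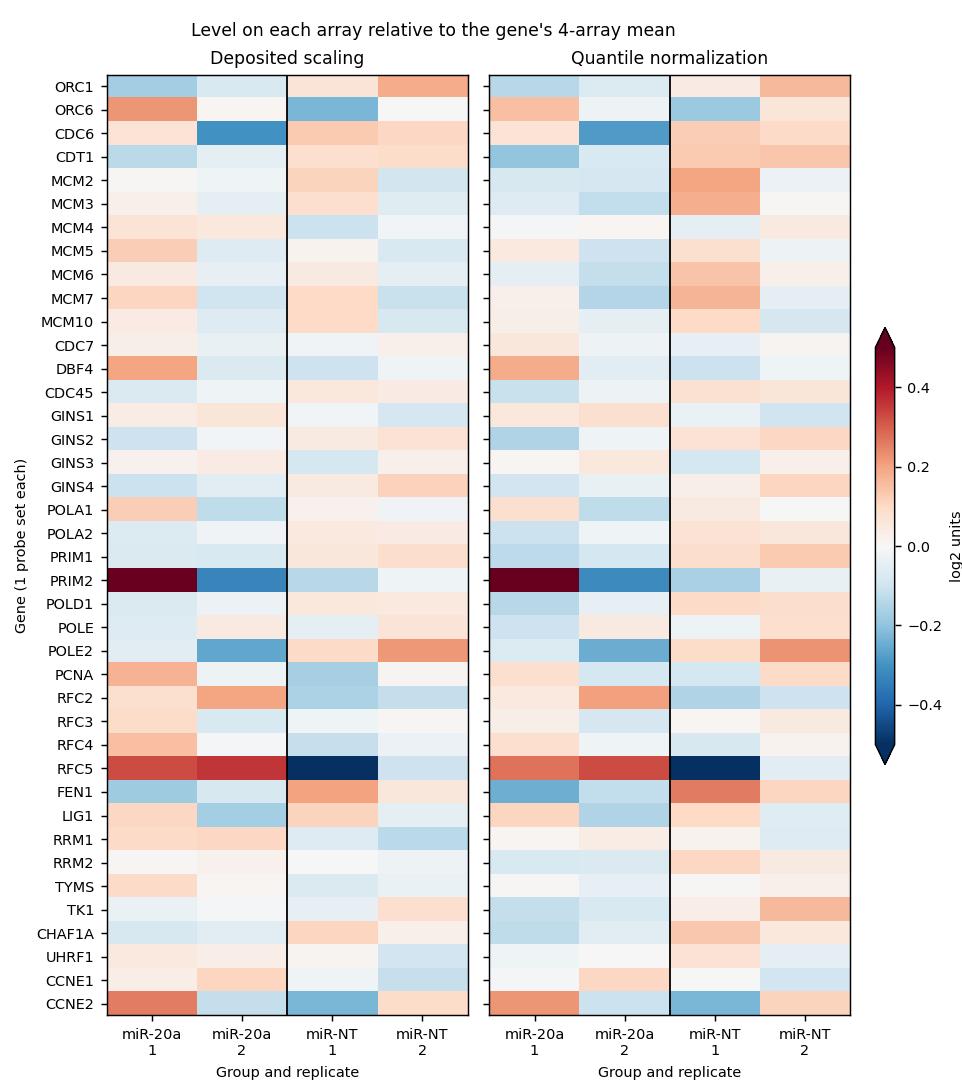
Level of each of the 40 genes on each array relative to the gene's mean over 4 arrays (colour, log2 units, red above and blue below), with the miR-20a arrays left of the black line and the miR-NT arrays right of it, under both scalings. PRIM2 is high on 1 miR-20a array only, at 6.92 against 6.10 on the other, and RFC5 is lowest on the first miR-NT array, at 8.87.

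The spread between replicate arrays was close to the size of most changes. The 2 miR-20a arrays differed by a median of 0.087 log2 units over the 40 genes and the 2 miR-NT arrays by 0.093, and over all genes these medians were 0.11 and 0.098. The largest gap within miR-20a was 0.82, for PRIM2, and within miR-NT 0.47, for RFC5. The median of the 40 genes, each taken relative to its own mean, stood at 0.038 and -0.033 on the miR-20a arrays and at 0.016 and -0.0053 on the miR-NT arrays. Under the deposited scaling the miR-20a arrays thus lay on both sides of the miR-NT arrays for the group as a whole. After quantile normalization the medians were 0.0010 and -0.056 on the miR-20a arrays and 0.045 and 0.036 on the miR-NT arrays, so that both miR-20a arrays lay below both miR-NT arrays.

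Genes with and without the E2F motif held both signs. The 19 genes with the motif in a window held 8 higher and 11 lower, with a median change of -0.010, and the 17 without it held 9 higher and 8 lower, with a median of 0.027. After quantile normalization those with the motif held 3 higher and 16 lower (median -0.060), with 53.2% of all genes lower. Those without it held 8 higher and 9 lower (median -0.016). No test was made of these differences. E2F1 itself was at 9.37 and 9.34 in miR-20a cells, against 9.60 and 9.65 in miR-NT cells, a change of -0.27 that was -0.36 after quantile normalization (limma adjusted p = 0.14 and 0.11).

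Other genes of replication and its control, from lists compiled from general knowledge, gave the same count of 0 called genes under both scalings. Of 32 other replication factors, 5 were higher and 2 lower at an unadjusted limma p under 0.05, 15.6% and 6.25%, beside 12.6% and 9.24% of all genes, with a median change of 0.041. POLE4, a small subunit of polymerase epsilon, was at 10.19 and 10.40 in miR-20a cells, against 9.73 and 9.98 in miR-NT cells (limma adjusted p = 0.12). RPA1, the large subunit of the protein that coats single-stranded DNA, was at 9.19 and 9.08 in miR-20a cells, against 8.82 and 8.84 in miR-NT cells. By the probe set used, both genes had higher levels on each miR-20a array than on either miR-NT array, with changes of 0.44 and 0.30. Each gene had 3 probe sets, 2 higher and 1 lower under both scalings. The mean over the probe sets had a change of 0.31 for POLE4 and 0.13 for RPA1. ORC4, another origin recognition subunit, was at 8.91 and 9.01 in miR-20a cells, against 8.51 and 8.75 in miR-NT cells, a change of 0.33 that was 0.21 without the first miR-NT array. Both ORC4 probe sets were higher, and their mean had a change of 0.17 (limma adjusted p = 0.41). WDHD1, which tethers polymerase alpha to the fork, was at 6.08 and 6.04 in miR-20a cells, against 6.32 and 6.26 in miR-NT cells, a change of -0.23. The mean over the WDHD1 probe sets had a change of -0.15.

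Among 15 measured genes of nucleotide and histone supply, 5 were higher and 1 lower at an unadjusted limma p under 0.05, 33.3% and 6.67%, beside 12.6% and 9.24% of all genes. After quantile normalization 3 were higher and 1 lower, 20% and 6.67%, beside 9.55% and 10.1%. RRM2B, the ribonucleotide reductase subunit that p53 induces, was at 7.95 and 7.84 in miR-20a cells, against 7.31 and 7.46 in miR-NT cells, a change of 0.51 ± 0.10 (limma adjusted p = 0.082). The histone chaperones ASF1A and ASF1B had changes of opposite sign. ASF1A was at 8.99 and 9.05 in miR-20a cells, against 8.55 and 8.74 in miR-NT cells. ASF1B, the proliferation-linked form, was at 9.87 and 9.85 in miR-20a cells, against 10.36 and 10.24 in miR-NT cells, a change of -0.44 ± 0.09 (limma adjusted p = 0.084). DCK, the deoxycytidine kinase, had a change of 0.49 ± 0.15, with 8.03 and 7.59 in miR-20a cells and 7.25 and 7.38 in miR-NT cells. Without the first miR-20a array it was 0.27.

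Among 27 measured genes that control entry into S phase, 2 were higher and 3 lower at an unadjusted limma p under 0.05, 7.41% and 11.1%, beside 12.6% and 9.24% of all genes. SKP2, which marks p27 for destruction, was at 8.31 and 8.14 in miR-20a cells, against 7.82 and 7.81 in miR-NT cells, a change of 0.41 ± 0.10 (limma adjusted p = 0.095). All 3 SKP2 probe sets were higher, and their mean had a change of 0.28 (limma adjusted p = 0.27). CDKN1B, which encodes p27, was at 8.46 and 8.26 in miR-20a cells, against 7.77 and 8.09 in miR-NT cells. Its change of 0.43 ± 0.13 (limma adjusted p = 0.14) was 0.27 without the first miR-NT array. MYBL2, a transcription factor of dividing cells, was at 9.24 and 9.38 in miR-20a cells, against 9.58 and 9.50 in miR-NT cells, a change of -0.23. CDKN1A, which encodes p21, was at 11.38 on both miR-20a arrays, against 11.27 and 11.29 on the miR-NT arrays, a change of 0.10 that was -0.048 after quantile normalization. Of 25 mitotic genes 1 was higher and 5 lower at an unadjusted limma p under 0.05, 4% and 20%, beside 12.6% and 9.24% of all genes. After quantile normalization 1 was higher and 8 lower, 4% and 32%, beside 9.55% and 10.1% of all genes. Of the 25 means 19 were then lower, 76%, beside 53.2% of all genes. CENPA, the histone variant of centromeres, was at 8.39 and 8.45 in miR-20a cells, against 8.75 and 8.78 in miR-NT cells (limma adjusted p = 0.10). UBE2C, which marks mitotic proteins for destruction, was at 11.03 and 11.05 in miR-20a cells, against 11.34 and 11.38 in miR-NT cells. The changes of CENPA and UBE2C were -0.34 and -0.32, with groups that did not overlap. TPX2, a spindle assembly factor, was at 10.84 and 10.75 in miR-20a cells, against 11.11 and 11.04 in miR-NT cells, a change of -0.28 that was -0.44 after quantile normalization. PLK1, a mitotic kinase, was at 9.03 and 9.13 in miR-20a cells, against 9.36 and 9.29 in miR-NT cells, a change of -0.24.

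A measure of RNA or labelling quality also lay apart in the groups. For ACTB, the level of the 3′ control probe set less that of the 5′ one was 0.52 and 0.46 on the miR-20a arrays, against 0.20 and 0.35 on the miR-NT arrays. For GAPDH it was 0.27 and 0.28 on the miR-20a arrays, against 0.22 on both miR-NT arrays. An exact permutation test of 2 arrays against 2 cannot give a two-sided p below 0.333. The part of this difference in the changes above was not tested.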

How the data were processed

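The data were 4 single-colour Affymetrix arrays of total RNA, 2 per group. Each deposited value is the log2 level of a probe set. The authors used the R package affy, per the submitters' processing notes. Its version, and how background was corrected and probes were normalized and summarized, is not given in the sources used here. A base of the logarithm was taken from the range of the values, which run from 3.45 to 15.1. No arrays were left out, and no low values were removed.

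From these values, 10 control probe sets were set aside, and the other 41920 entered a fit in R 4.3.3 by limma 3.58.1 (lmFit and eBayes, with group as the term). Platform annotation named 1 gene for 37465 of them, several for 1727 and none for 2728. The Entrez identifiers of all 40 genes matched RefSeq with 0 symbols changed. For gene results, the single-gene probe set with the highest mean over 4 arrays stood for its gene. P-values were two-sided and adjusted over all features by the Benjamini-Hochberg method. In eBayes the prior SD was 0.098, on 4.73 degrees of freedom. The alternatives were quantile normalization, median centring, cyclic loess, a filter on low values, trend and robust eBayes, a replicate block, other rules for probe sets and leaving out each array.

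Replicate numbers were taken from the titles. The deviations of same-numbered arrays correlated at -0.11, and the numbers were not treated as pairs. The genes and lists were chosen with earlier results of these data known. Values by array are given for genes with an unadjusted p under 0.05 by gene or any probe set under either scaling, the 10 largest changes, up to 4 genes of each further list with the smallest p, and QKI, E2F1 and CDKN1A, and for further members as examples chosen after their values were seen. One result on a control probe set is not reported here.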

Additional observations from a re-analysis of the deposited data

Results flagged for a closer look

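The ACTB and GAPDH control probe sets, which enter no comparison of genes, differed between the groups. The 3′ minus 5′ difference of ACTB averaged 0.486 ± 0.042 log2 units in miR-20a cells and 0.272 ± 0.105 in miR-NT cells, and that of GAPDH averaged 0.275 ± 0.002 in miR-20a cells and 0.222 ± 0.004 in miR-NT cells (SD, n = 2 each).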

How the results depend on the processing

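The count of called replication genes stayed at 0 after quantile normalization, median centring, cyclic loess, under a replicate block, with other rules for probe sets and without any 1 array. It became 1, RFC5, with low values left out, with a trend and robust fit, and at an adjusted p under 0.1. The count of their called probe sets was 0 under every setting run. With low values left out and with the trend and robust fit, 1 and 1 of the other replication factors were called, 3 and 3 of the supply genes, 1 and 1 of the S-phase control genes and 2 and 3 of the mitotic genes. The same settings called 1239 and 1212 genes and 334 and 957 probe sets in all. Median centring called 136 genes, and the mean of a gene's probe sets 153. A replicate block, with or without quantile normalization, called 0 genes and 0 probe sets in all, with 1 residual degree of freedom. The crossed pairing, added after seeing the data, also called 0 and 0. Under the replicate block an unadjusted limma p under 0.05 was reached by 1 lower replication gene and 5 lower probe sets, and after median centring by 4 lower probe sets.

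Leaving out 1 array moved the count of all called genes between 0 and 203 and of probe sets between 0 and 66, with 0 without either miR-NT array. Among replication genes it moved those higher at an unadjusted p under 0.05 between 1 and 4 and those lower between 1 and 2 (probe sets 1 to 6 and 3 to 5), and called supply genes between 0 and 1. The median change of the 40 genes ranged from -0.048 to 0.049 and of the 72 probe sets from -0.072 to 0.022. MCM7 ranged from -0.095 to 0.12, RFC3 from -0.068 to 0.099, PRIM2 from -0.25 to 0.57 and DCK from 0.27 to 0.71.

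The median change of the 40 genes was -0.055 after quantile normalization, with or without the block, and -0.043 after cyclic loess. Among the genes followed one by one, the sign turned in these 2 settings for MCM7 (-0.12 and -0.11) and RFC3 (-0.056 and -0.040). It also turned for RRM2 (-0.15 and -0.12), TYMS (-0.033 and -0.044) and CDKN1A (-0.048 and -0.036). Of all 40 genes, 9 turned sign after quantile normalization. With the mean of the probe sets and with the probe set of largest SD, the sign turned for MCM7 (-0.14 and -0.30) and RFC3 (-0.10 and -0.25). Again among the genes followed one by one, it also turned for TYMS (-0.035 and -0.084), CCNE1 (-0.052 and -0.24) and QKI (-0.079 and -0.43). With 2 arrays a group and no detection calls, small changes and low levels are the least certain.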
